A study of Mus musculus with 6 samples.

Results

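The genes described here are 10 imprinted genes that govern fetal growth (*H19*, *Igf2*, *Igf2r*, *Dlk1*, *Meg3*, *Peg3*, *Mest*, *Cdkn1c*, *Grb10*, and *Plagl1*), chosen by gene symbol from the 23997 genes of the expression table, in which all 10 were found. The table holds bulk RNA-Seq of the ductus arteriosus (DA), the fetal vessel between the pulmonary artery and the aorta, taken at E17.5 from C57BL/6 embryos. It has 3 libraries of wild type embryos (WT 0, 1, and 2) and 3 labelled KO (KO 0, 1, and 2), whose genotype is given as Prdm6f/f; SM22-Cre. *SM22-Cre* is a transgene that expresses Cre-recombinase in SMCs, and recombination in other cell types was not examined here. The study calls the WT controls littermates. The sources used here leave unstated what part of *Prdm6* the loxP sites flank and whether the WT embryos carried Cre or a floxed allele. How many embryos made up a library is not stated either. None of the 10 genes differed between the groups beyond the spread between libraries. Of 4 ratios of members compared within libraries, only that of *H19* to *Igf2* was lower in every KO library than in any WT library. Its p was 0.1 (two-sided exact permutation test), which is the smallest that this design allows. After adjustment over the 4 pairs it was 0.4, not past the threshold.

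An imprinted gene is expressed mainly from the copy inherited from a single parent. A methylation mark laid down in the egg or the sperm, at the gene or at its regulator, sets the copies apart. Paternally expressed members such as *Igf2* tend to promote growth of the fetus, whereas maternally expressed members such as *H19*, *Igf2r*, *Cdkn1c*, and *Grb10* tend to restrain it. Many of these genes are abundant in fetal mesenchyme and muscle and decline after birth. FPKM adds up both copies of a gene, so it shows the amount of transcript and not which parental copy it came from.

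The marks of *Mest*, *Peg3*, and *Plagl1* lie at or around their promoters and consist of methyl groups on CpG dinucleotides. Their promoter windows, from 250 bases before to 50 bases after an annotated start, are shown for this reason, in the RefSeq sequence of GRCm38.p6 with each CpG in capitals. The *Mest* window is chr6:30737800-30738099 on the plus strand, the *Peg3* window is chr7:6730370-6730669 on the minus strand, and the *Plagl1* window is chr10:13090582-13090881 on the plus strand.
Mest: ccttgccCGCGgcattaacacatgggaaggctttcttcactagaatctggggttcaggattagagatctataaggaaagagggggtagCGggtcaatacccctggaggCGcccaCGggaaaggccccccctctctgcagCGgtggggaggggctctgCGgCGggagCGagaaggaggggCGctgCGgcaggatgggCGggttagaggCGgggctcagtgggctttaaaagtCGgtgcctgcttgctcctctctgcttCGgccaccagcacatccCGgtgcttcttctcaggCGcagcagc
Peg3: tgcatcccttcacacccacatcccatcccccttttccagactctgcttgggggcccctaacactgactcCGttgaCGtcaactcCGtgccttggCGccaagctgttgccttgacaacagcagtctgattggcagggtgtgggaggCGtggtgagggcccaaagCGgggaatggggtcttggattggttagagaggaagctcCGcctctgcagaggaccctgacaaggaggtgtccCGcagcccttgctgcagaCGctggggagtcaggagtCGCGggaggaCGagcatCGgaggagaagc
Plagl1: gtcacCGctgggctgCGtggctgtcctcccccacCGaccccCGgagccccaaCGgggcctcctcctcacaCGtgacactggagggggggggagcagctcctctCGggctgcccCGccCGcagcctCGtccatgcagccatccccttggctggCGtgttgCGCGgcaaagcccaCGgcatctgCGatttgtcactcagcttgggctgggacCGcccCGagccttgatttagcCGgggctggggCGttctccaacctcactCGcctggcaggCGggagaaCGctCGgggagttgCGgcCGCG
The windows held 17 CpG in *Mest*, 13 in *Peg3*, and 26 in *Plagl1*, against a median of 7 over the 32851 promoter windows of the RefSeq table. Counted on the printed strand, 31.4%, 37.9%, and 16.9% of all windows held at least as many. RefSeq windows were given for 8 of the 10 genes, 15 windows in all. The CpG count ranged from 1 at a *Meg3* start to 45 at a *Grb10* start, a number that 1.93% of all windows reach, and 12 of the 15 windows were above the median, as were 48.6% of all windows. *Igf2* had 4 windows, with 2, 14, 24, and 7 CpG from the most upstream start to the last, and its FPKM adds up their transcripts.

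*H19* is also the precursor of a microRNA, miR-675, which is cut from an exon of *H19*. Its mature forms are printed because this is the most abundant host transcript of the list, with the seed (bases 2 to 8) in capitals.
miR-675-5p: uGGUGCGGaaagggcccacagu
miR-675-3p: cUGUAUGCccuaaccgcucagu
The row of *Mir675* was listed at 0 FPKM in all 6 libraries, as were those of *Mir483* in an intron of *Igf2*, *Mir335* in an intron of *Mest*, and *Mir770* in an exon of *Meg3*. Of the 24 microRNA genes in or beside these loci, 19 were listed at 0 throughout. An exact 0 in this table can be a failed estimate, so these rows say nothing about the mature microRNAs.

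Some features of the libraries bear on every value below. FPKM is the number of fragments scaled by transcript length and by the mapped fragments of the library, and how deeply each library was sequenced is unknown. *Prdm6* itself was at 41.7, 48.4, and 19.8 FPKM in WT and 48.6, 27.1, and 15.4 FPKM in KO, so the gene's total does not check the labels. Library KO 0 held transcripts of both *Xist* (81.0 FPKM) and the Y-linked *Ddx3y* (26.4 FPKM), whereas every other library had less than 1 FPKM of the latter or of the former. Genes of small RNAs were grouped, here with ribosomal RNA types and *Rn45s* among them. They made up 31.1%, 9.43%, and 7.96% of the summed FPKM in WT and 16.1%, 36.0%, and 59.0% in KO. Without them the sum was 335860 FPKM in KO 2, the lowest, and 383450 FPKM in WT 0, the highest. Summed erythroid markers were at 3863, 7584, and 4351 FPKM in WT and 12641, 24360, and 4284 FPKM in KO. Libraries WT 1 and KO 2 had summed heart muscle markers of 1318 and 1454 FPKM, against 56.7 to 386 FPKM in the others. All 12 smooth muscle markers were detected, as they should be in the DA. Their summed level was 3138 to 6397 FPKM in WT and 1148 to 2738 FPKM in KO. In limma, 7 of the 12 were lower at an unadjusted p under 0.05 and 0 after adjustment, beside 8.28% of all genes tested with an unadjusted p under 0.05 in either direction. In bulk tissue, fewer cells of a type and less RNA per cell cannot be told apart.

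*H19*, a long noncoding RNA transcribed from the maternal copy, was the most abundant member in every library. Its FPKM was 3634, 4101, and 4287 in WT and 4462, 2834, and 2687 in KO. Leaving out genes of small RNAs, it stood between the second and the sixth place of 22748 genes in each library and made up 0.767% to 1.21% of the summed FPKM. KO 0 was the highest library of all and KO 1 and KO 2 the lowest, so the groups overlapped. The mean was 4007 ± 337 FPKM (SD, n = 3) in WT and 3327 ± 985 FPKM (SD, n = 3) in KO, and the log2 fold change (KO minus WT, computed from log2(FPKM + 0.1)) was -0.30 (95% interval -1.08 to 0.47, adjusted p = 0.78 from limma), and it was -0.98 with quantile normalization, which also moved *Peg3* from 0.12 to 0.37. *H19* lies on chromosome 7 of GRCm38 from 142575529 to 142578143, on the minus strand.

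*Igf2*, the paternally expressed growth factor that drives placental and fetal growth, was the second most abundant member. It lies 72.6 kb from *H19* (chromosome 7 from 142650766 to 142666816), and the genes draw on shared enhancers. Its FPKM was 649, 782, and 862 in WT and 1023, 775, and 726 in KO. KO 0 was again the highest library, and the other KO libraries lay within the WT range. The log2 fold change was 0.13 (95% interval -0.39 to 0.65, adjusted p = 0.857 from limma). *Igf2os*, an antisense gene whose exons overlap those of *Igf2*, was at 1.49 to 3.77 FPKM in WT and 4.45 to 5.67 FPKM in KO. The strandedness of the libraries is not given in the sources used here, so reads of *Igf2* and *Igf2os* may not be told apart.

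*Igf2r*, the maternally expressed receptor that carries Igf2 protein to the lysosome for degradation, was at 151, 266, and 164 FPKM in WT and 134, 161, and 227 FPKM in KO. WT 1 and KO 2 were the highest libraries, so each group held a high value. The log2 fold change was -0.15 (95% interval -0.80 to 0.51, adjusted p = 0.874 from limma), and it was 0.11 without WT 1, 0.02 without KO 0, and 0.08 with quantile normalization. *Igf2r* spans chromosome 17 from 12682406 to 12769664 and overlaps the antisense RNA *Airn*, which silences it on the paternal copy and was at 40.2 to 70.7 FPKM in WT and 48.2 to 62.8 FPKM in KO.

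**Figure D1:**
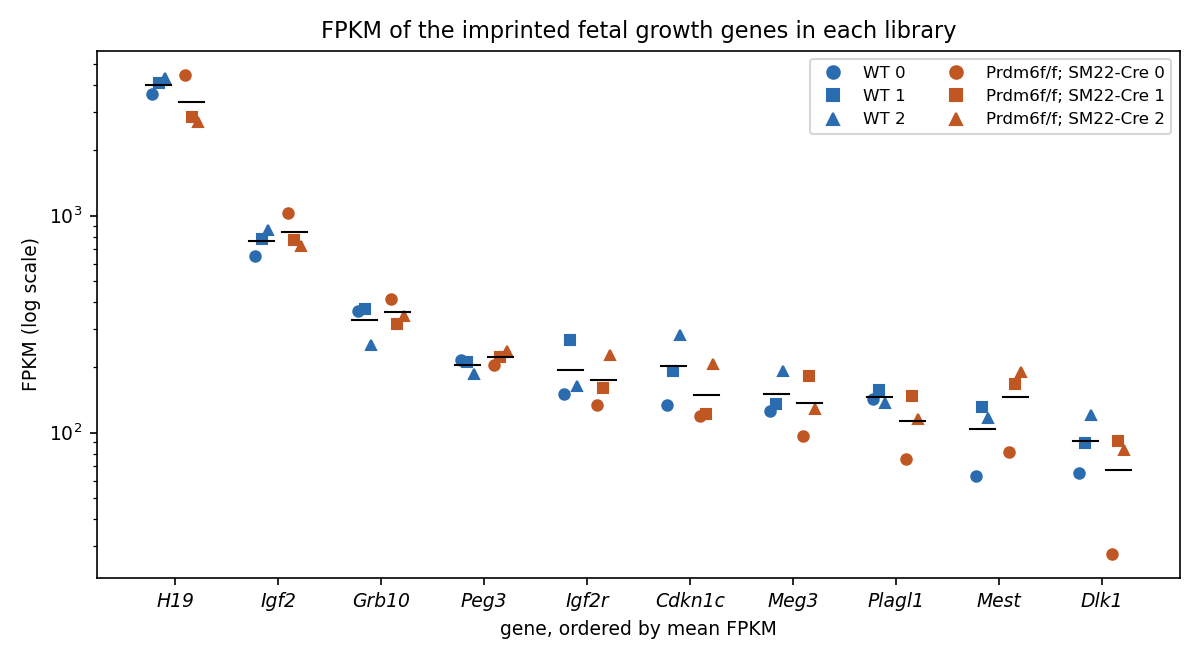
FPKM of the 10 genes on a log axis, with 1 point per library (WT in blue, Prdm6f/f; SM22-Cre in orange, symbols for the library numbers) and a bar at each group's mean. *H19* lies highest in all 6 libraries, and for every gene the points of the groups overlap.

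*Grb10* and *Cdkn1c* act as brakes on growth. *Grb10* encodes an adaptor that binds and restrains the insulin and IGF receptors, and it was at 363, 371, and 254 FPKM in WT and 414, 316, and 345 FPKM in KO. The low value was in WT 2 and the high value in KO 0, and the remaining libraries lay between 316 and 371 FPKM. Its log2 fold change was 0.14 (95% interval -0.36 to 0.63, adjusted p = 0.843 from limma) and became -0.04 without WT 2. *Cdkn1c*, which encodes the cyclin-dependent kinase inhibitor p57Kip2, was at 134, 192, and 283 FPKM in WT and 119, 121, and 207 FPKM in KO. KO 0 and KO 1 lay below every WT library, whereas KO 2 lay above 2 of the 3. The log2 fold change was -0.43 (95% interval -1.18 to 0.33, adjusted p = 0.713 from limma). *Grb10* lies on chromosome 11 from 11930508 to 12038683 and *Cdkn1c* on chromosome 7 from 143458339 to 143461050.

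*Dlk1* and *Meg3* are neighbors on chromosome 12, 77.7 kb apart, and are expressed from opposite parental copies. *Dlk1*, a transmembrane protein of the Delta family that marks fetal progenitor cells, was at 65.0, 89.7, and 121 FPKM in WT and 27.6, 91.6, and 82.9 FPKM in KO. KO 0 stood far below the others, and KO 1 and KO 2 fell inside the WT range. Its log2 fold change was -0.58 (95% interval -1.66 to 0.50, adjusted p = 0.721 from limma), and it was -0.03 without KO 0, so the size of this difference rested on that library. *Meg3*, a long noncoding RNA of the maternal copy, was at 126, 135, and 193 FPKM in WT and 96.6, 183, and 129 FPKM in KO. KO 0 was again the lowest library. The log2 fold change of *Meg3* was -0.17 (95% interval -0.81 to 0.46, adjusted p = 0.842 from limma), and it was 0.05 without KO 0 and 0.01 without WT 2. *Dlk1* lies from 109452823 to 109463336 and *Meg3* from 109541001 to 109571726.

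*Peg3*, *Mest*, and *Plagl1* are paternally expressed. *Peg3*, which encodes a zinc finger protein, was at 215, 212, and 185 FPKM in WT and 206, 223, and 238 FPKM in KO, the narrowest range of the list. Its log2 fold change was 0.12 (95% interval -0.24 to 0.48, adjusted p = 0.806 from limma). *Mest*, a protein of the hydrolase fold family known from fetal mesoderm, was at 63.1, 131, and 116 FPKM in WT and 81.1, 167, and 189.8 FPKM in KO. WT 0 and KO 0 were both low, and KO 1 and KO 2 lay above every WT library. The log2 fold change of *Mest* was 0.47 (95% interval -0.43 to 1.37, adjusted p = 0.727 from limma) and reached 0.85 without KO 0. The exons of *Mest* overlap those of *Copg2* on the other strand, which was at 17.6 to 27.4 FPKM in WT and 18.7 to 40.8 FPKM in KO. *Plagl1*, a zinc finger transcription factor that regulates other imprinted genes, was at 142, 158, and 137 FPKM in WT and 75.2, 147, and 115 FPKM in KO. KO 0 and KO 2 lay below the WT range, and KO 1 lay within it. Its log2 fold change was -0.42 (95% interval -1.001 to 0.16, adjusted p = 0.667 from limma), the smallest adjusted p of the list. *Peg3* lies on chromosome 7 from 6703892 to 6730431, *Mest* on chromosome 6 from 30723547 to 30748465, and *Plagl1* on chromosome 10 from 13060504 to 13131694.

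**Figure D2:**
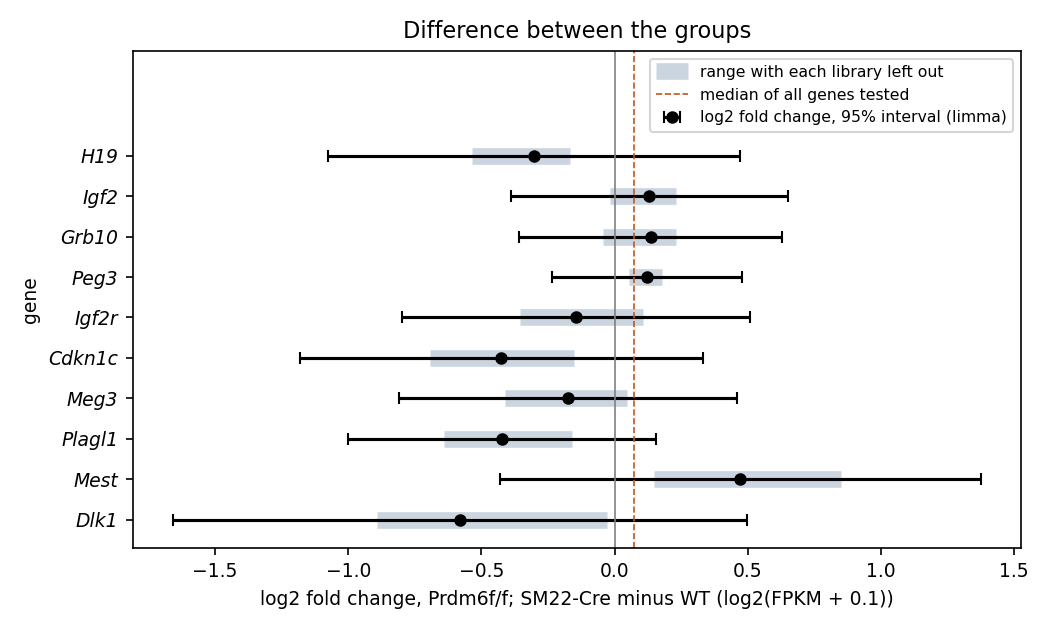
Log2 fold change of each gene (KO minus WT, on log2(FPKM + 0.1)) with its 95% interval from limma, the range of values when each library was left out (gray bar), and the median of all genes tested (dashed line). Every interval includes 0, and the gray bars of *Igf2*, *Igf2r*, *Grb10*, and *Meg3* cross it.

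The counts over the list are given beside those over the whole table. All 10 members passed the filter (a mean of 1 FPKM or more), and 0 had an adjusted p under 0.05 in limma, a call that 1 of the 12955 genes tested (0.00772%) received. An unadjusted p under 0.05 was reached by 0 of the 10 members and by 8.28% of all genes tested, and the groups did not overlap for 0 members and for 16.1% of all genes tested. The median log2 fold change was -0.16 over the 10 members and 0.072 over all genes tested. It was -0.17 over the 5 maternally expressed members, of which 4 were below 0, and 0.12 over the 5 paternally expressed members, of which 2 were below 0. The maternal median was the value of *Meg3*, which was 0.05 without KO 0 and 0.01 without WT 2. Over the 10 members the median was 0.003 without KO 0 and 0.024 with quantile normalization. With 3 libraries against 3, the data bound these changes only loosely. The 95% interval of the fold of KO over WT ran from 0.849 to 1.39 for *Peg3*, the narrowest of the 10, and from 0.317 to 1.41 for *Dlk1*, the widest on the log scale.

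The order of the levels was much alike in both groups. *H19*, *Igf2*, *Grb10*, and *Peg3* held the first 4 places by mean FPKM in WT and in KO, and *Dlk1* held the last. The values of *H19*, *Igf2*, and *Grb10* did not overlap with those of the next gene in either group. From *Peg3* down, neighbors in the order overlapped, except for *Plagl1* and *Mest* in WT, so that 5 of the 9 neighboring pairs in WT and 6 of the 9 in KO did not differ beyond their range. FPKM is scaled for transcript length, so the order depends on the transcript models the authors used, which are not given in the sources used here.

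The members differed widely in how much they varied between libraries of the same group. The SD within groups on the log2(FPKM + 0.1) scale was 0.75 for *Dlk1*, 0.62 for *Mest*, and 0.50 for *Cdkn1c*, and 0.30, 0.26, 0.24, and 0.11 for *H19*, *Grb10*, *Igf2*, and *Peg3*. Among the 3506 genes whose mean FPKM was 20 or more, 8.59% had a larger SD than *Dlk1*, and 95.2% had a larger SD than *Peg3*. The median over the members was 0.38, against 0.30 over those 3506 genes and 0.50 over all genes tested. The highest library exceeded the lowest by 4.37-fold for *Dlk1*, 3.01-fold for *Mest*, and 1.28-fold for *Peg3*.

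**Figure D3:**
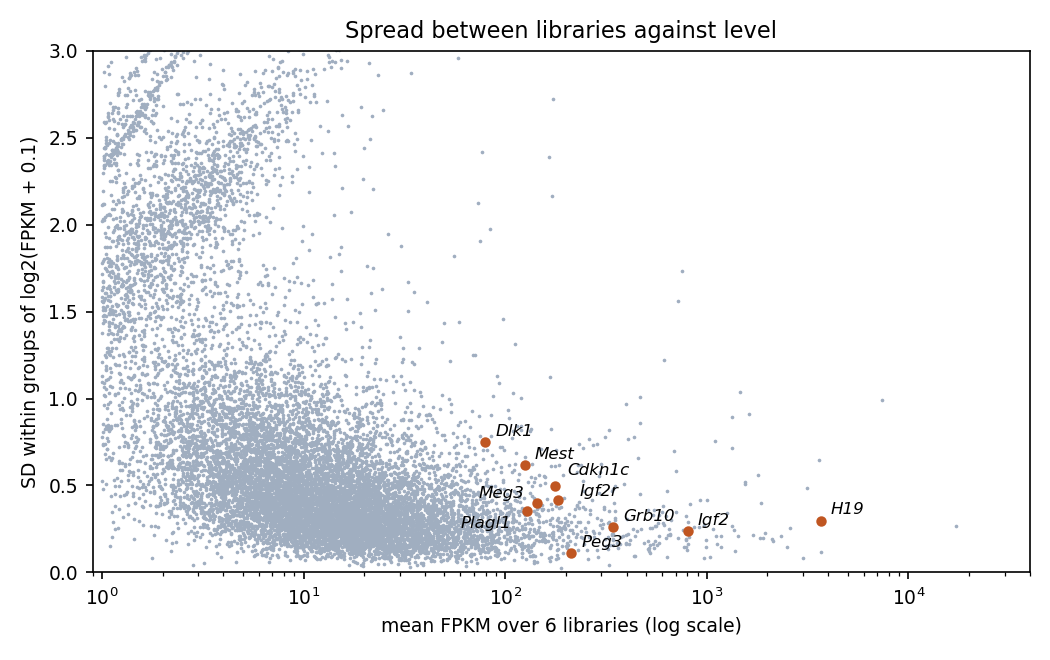
SD within groups of log2(FPKM + 0.1) against the mean FPKM over the 6 libraries on a log axis, for the genes tested (gray, of which 258 lie outside the axes) and for the 10 imprinted genes (orange, named). *Dlk1* and *Mest* lie above most genes of their level and *Peg3* below.

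Much of this spread followed single libraries. KO 0 had the lowest value of the 6 for 5 members (*Igf2r*, *Dlk1*, *Meg3*, *Cdkn1c*, and *Plagl1*) and the highest for 3 (*H19*, *Igf2*, and *Grb10*). WT 2 had the highest value for *Dlk1*, *Meg3*, and *Cdkn1c* and the lowest for *Peg3* and *Grb10*. *Dlk1* in KO 0 was 1.40 below its mean on the log2 scale, the farthest of the 60 values. The summed level of 10 fibroblast markers was lowest in KO 0 as well, at 3457 FPKM, and highest in WT 2, at 7622 FPKM. It was 4261 and 5798 FPKM in WT 0 and WT 1 and 6939 and 6724 FPKM in KO 1 and KO 2, and none of the 10 markers was listed at 0 throughout. KO 0 was the lowest library for *Col1a1*, *Col1a2*, *Col3a1*, *Postn*, *Dcn*, and *Dpt*, and the first 4 weigh most in the sum. It was not the lowest for *Pdgfra*, *Lum*, *Fbln1*, or *Tcf21*. *Lum* in KO 0 (131 FPKM) lay above every WT library (47.0, 62.4, and 109 FPKM), so the markers did not all follow the sum. The part of fibroblast content in the spread of *Dlk1* and *Meg3* was not tested.

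**Figure D4:**
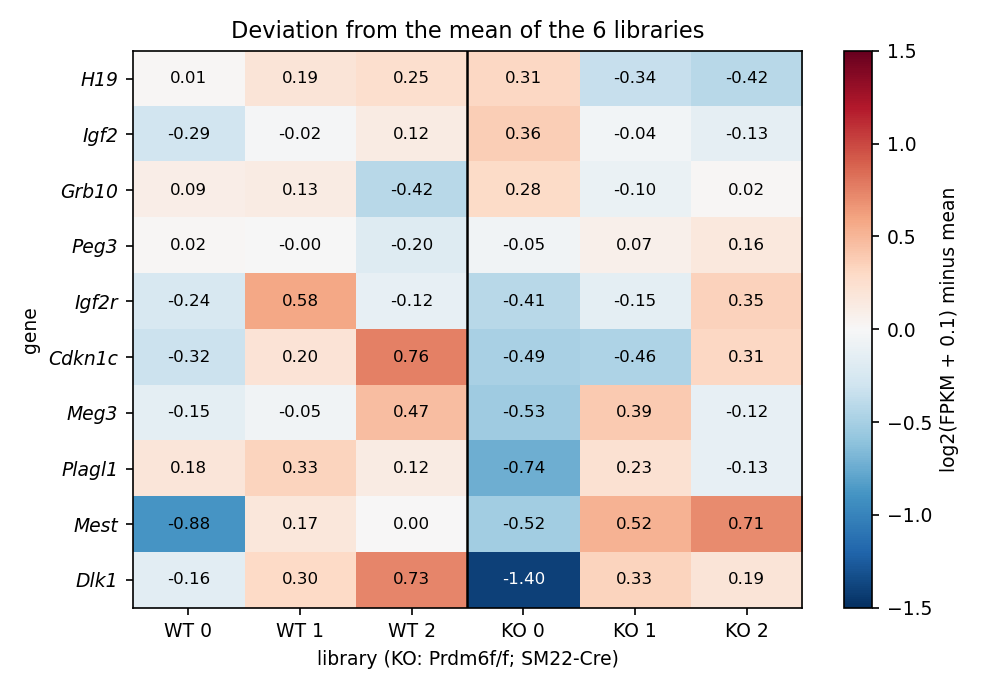
Deviation of each gene from its mean over the 6 libraries, on the log2(FPKM + 0.1) scale, with libraries in columns (a line parts WT from KO) and genes in rows by mean FPKM. The column of KO 0 holds the deepest value, -1.40 for *Dlk1*, and values above 0.25 for *H19*, *Igf2*, and *Grb10*.

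Ratios within a library do not depend on the scaling between libraries, so 4 pairs of members were compared in this way. The *H19* to *Igf2* ratio of FPKM was 5.60, 5.24, and 4.97 in WT and 4.36, 3.66, and 3.70 in KO. Each KO library lay below each WT library, including KO 0, in which both transcripts were at their highest. On the log2 scale the ratio was 2.40 ± 0.085 (SD, n = 3) in WT and 1.96 ± 0.14 (SD, n = 3) in KO, a difference of -0.43 (exact permutation test, two-sided, p = 0.1, the lowest p that 3 libraries against 3 can give, and 0.4 after adjustment over the 4 pairs). On leaving out any single library, the difference stayed between -0.52 and -0.39. The summed smooth muscle markers put the libraries in nearly the same order, at 6397, 3338, and 3138 FPKM in WT and 2738, 2109, and 1148 FPKM in KO, and their part in the ratio was not tested. *Igf2os* overlaps *Igf2* and was far below *Igf2* in FPKM in every library. *Igf2os* was higher in each KO library than in each WT library, beside 16.1% of all genes tested without overlap in either direction. Its part in the ratio was not tested either.

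For the other 3 pairs the groups overlapped. The log2 ratio of *Cdkn1c* to *Igf2* differed by -0.56 between KO and WT (two-sided exact permutation test, p = 0.3, adjusted p = 0.4). That of *Meg3* to *Dlk1* differed by 0.41 (two-sided exact permutation test, p = 0.3, adjusted p = 0.4), with log2 ratios of 0.951, 0.587, and 0.677 in WT and 1.81, 0.998, and 0.633 in KO. That of *Igf2r* to *Igf2*, the receptor that clears the growth factor against the growth factor itself, differed by -0.28 (two-sided exact permutation test, p = 0.6, adjusted p = 0.6) and turned to 0.04 without KO 0.

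*Dlk1* and *Meg3* varied together across the 6 libraries. Both ranked the libraries in the same order, from KO 0, WT 0, KO 2, WT 1, and KO 1 to WT 2 (Spearman's rho = 1, exact permutation p = 0.00278, Pearson's r = 0.87, exact permutation p = 0.00139, or 0.00556 and 0.00278 after adjustment over 2 relations). Without KO 0 and WT 2, the libraries farthest from the median of *Dlk1*, r was 0.61 over 4 libraries (exact permutation p = 0.292), and the remaining 4 libraries kept the same order in both genes. The strength of the linear relation thus depended on KO 0 and WT 2. Groups of 3 libraries are too small to test it within WT or KO. The fibroblast markers gave nearly the same order of libraries. *Igfbp5*, an IGF binding protein gene named here for this match, gave exactly the same order. Its FPKM was 232, 272, and 442 in WT and 103, 357, and 234 in KO. The share of all genes with this order was not counted. Whether the relation is particular to *Dlk1* and *Meg3* as neighbors was not tested. For *H19* and *Igf2*, r was 0.58 (exact permutation p = 0.239) and rho was 0.83 (exact permutation p = 0.0583, as after adjustment over the 2 relations). Without KO 1 and KO 2, r was 0.97 over 4 libraries (exact permutation p = 0.0417, unadjusted, the lowest p that 4 libraries can give). KO 1 and KO 2 were left out because their *H19* values lay farthest from the median, so this p does not test the relation.

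**Figure D5:**
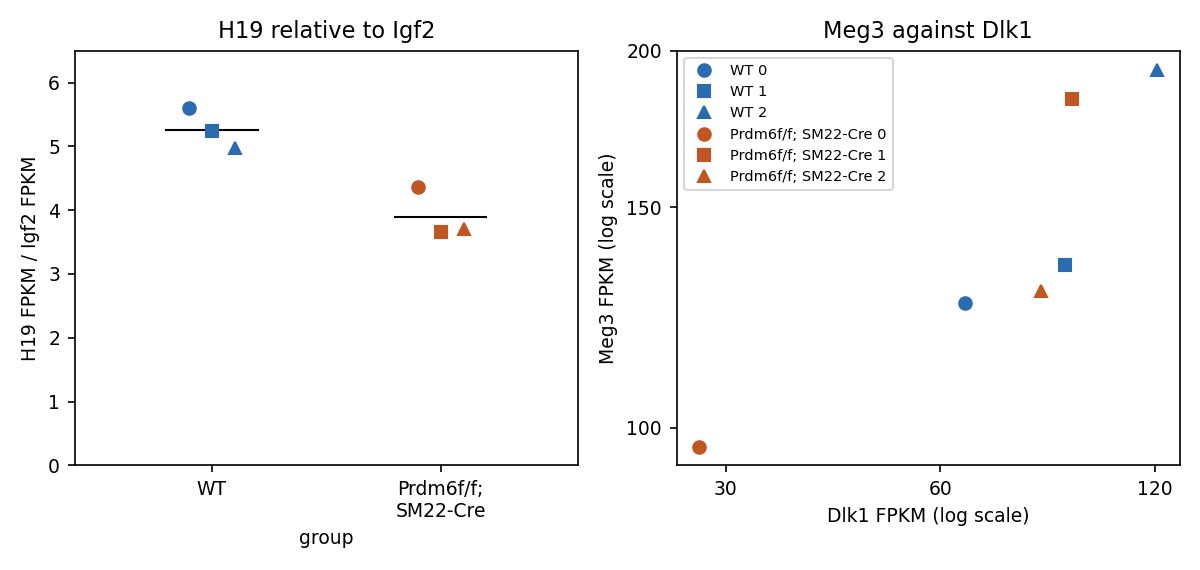
Left, the ratio of *H19* FPKM to *Igf2* FPKM in each library, with a bar at each group's geometric mean. Right, *Meg3* against *Dlk1* FPKM on log axes. The WT ratios lie between 4.97 and 5.60 and the KO ratios between 3.66 and 4.36, and KO 0 lies apart at the lower left of the right panel.

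Among the 3505 other genes whose mean FPKM was 20 or more, those whose profile over the 6 libraries was most like that of *H19* were *Atxn2l* (Pearson's r = 0.99), *Dkk3* (0.98), *Ilk* (0.98), *Hipk3* (0.96), and *Smarcd2* (0.96). Most like *Igf2* were *Snrpb2* (0.98), *Elof1* (0.98), *Pmf1* (0.98), *Cops3* (0.96), and *Gucy1a3* (0.94). These were the highest of 3505 values, each over 6 libraries, and are given as a description.

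The clusters around these genes hold further imprinted genes. Of 29 such neighbors, 27 were in the table and 15 passed the filter. An unadjusted p under 0.05 in limma was reached by 0 of the 15, beside 8.28% of all genes tested. Their median log2 fold change was 0.37, with 12 above 0. Over all 12955 genes tested the median was 0.072, with 7207 above 0. The groups did not overlap for 2 neighbors (13.3%), 1 in each direction, beside 16.1% of all genes tested. *Rian*, a noncoding RNA downstream of *Meg3*, was at 189, 173, and 181 FPKM in WT and 124, 244, and 266 FPKM in KO. KO 0 was the lowest library for *Rian* as it was for *Dlk1* and *Meg3*. *Zim1*, beside *Peg3*, was at 54.7, 55.1, and 31.6 FPKM in WT and 53.6, 75.5, and 87.6 FPKM in KO, with a log2 fold change of 0.63 (95% interval -0.03 to 1.29, adjusted p = 0.609 from limma). *Kcnq1ot1*, the antisense RNA that silences *Cdkn1c* on the paternal copy, was at 8.10, 9.15, and 7.91 FPKM in WT and 9.44, 10.6, and 12.6 FPKM in KO, without overlap (log2 fold change 0.37, 95% interval -0.26 to 0.995, adjusted p = 0.705 from limma). *Nap1l4*, of the same region as *Cdkn1c*, was without overlap in the other direction, at 40.9, 40.6, and 40.0 FPKM in WT and 36.2, 30.9, and 38.3 FPKM in KO. *Phlda2*, *Ascl2*, and *Slc22a18*, also of that region, were each listed at 0 in 5 of 6 libraries.

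The Igf2 protein acts through the receptors of the IGF axis, whose genes were listed apart from the 10 members. Of 22 genes, 19 were tested, and 3 (15.8%) had an unadjusted p under 0.05 in limma, beside 8.28% of all genes tested. All 3 were lower in KO, and 0 passed after adjustment. The groups did not overlap for 2 of the 19 (10.5%), beside 16.1% of all genes tested. *Igfbp2*, an IGF binding protein, was at 102, 40.3, and 35.4 FPKM in WT and 11.8, 10.5, and 14.7 FPKM in KO, without overlap, and its log2 fold change was -2.10 (standard error 0.40, adjusted p = 0.332 from limma). *Igfbp7* was at 72.3, 59.0, and 62.2 FPKM against 31.1, 48.3, and 19.3 FPKM, also without overlap (log2 fold change -1.06, standard error 0.32, adjusted p = 0.535 from limma). The third was *Stc2*, at 11.9, 1.15, and 12.5 FPKM against 1.21, 1.17, and 0.516 FPKM. The groups overlapped for both signalling receptors, with *Igf1r* at 28.4 to 33.3 FPKM in WT and 31.0 to 35.4 FPKM in KO and *Insr* at 10.04 to 16.04 FPKM and 13.3 to 15.8 FPKM. *Igf1*, the sister ligand, was at 29.5, 64.7, and 87.1 FPKM in WT and 34.0, 77.3, and 110.1 FPKM in KO, below *Igf2* in every library.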

How the data were processed

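RNA of E17.5 DA was sequenced in 3 WT and 3 KO (Prdm6f/f; SM22-Cre) libraries. The authors trimmed the reads and used TopHat2 for alignment (mm10). Their deposited FPKM values came from Cufflinks and Cuffdiff, as 1 value per gene and library. Versions, annotation, and scaling between libraries are not given in the sources used here. Columns were matched to libraries by sample title, with 0 left over, and titles gave the groups. The labels call the libraries separate samples but do not name the embryos, so p values measure the spread between these libraries, which may be technical. FPKM holds no counts, and no counting interval was computed.

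Genes averaging 1 FPKM or more were compared on log2(FPKM + 0.1), which understates changes of low genes, with limma 3.58.1 (R 4.3.3, lmFit, then eBayes with trend, two-sided, Benjamini-Hochberg adjustment over all genes tested, threshold 0.05). The fit was tested on simulated data. Single ratios used exact permutation over the 20 assignments of the 6 libraries, and correlations used the 720 pairings. Locations are from GENCODE vM21 (GRCm38, the assembly of mm10), sequences from RefSeq. Small RNA genes, with ribosomal RNA types and *Rn45s* counted among them, were set by annotated type and symbol. The members and gene lists were chosen with earlier results of these data known. Named genes are the members, the listed genes, *Prdm6*, the 5 genes most like *H19* and the 5 most like *Igf2*, and the overlapping *Igf2os* and the sex-linked *Xist* and *Ddx3y*, which were added after their values were seen. Alternatives changed the pseudocount, filter, scaling, or variance model, added the replicate block, or left out a library, and a fit leaving out WT 1 and KO 2, high in heart muscle markers, was chosen after seeing the data.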

Additional observations from a re-analysis of the deposited data

How the results depend on the processing

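Over 18 alternatives for each gene, no member reached an adjusted p under 0.05, and *H19*, *Dlk1*, *Cdkn1c*, and *Plagl1* kept a negative and *Peg3* and *Mest* a positive log2 fold change in all of them. *Igf2r* turned to 0.081 with quantile normalization. On leaving out any single library, log2 fold changes lay between -0.018 and 0.23 for *Igf2*, -0.36 and 0.107 for *Igf2r*, -0.41 and 0.048 for *Meg3*, and -0.042 and 0.23 for *Grb10*, and the log2 ratio of *Igf2r* to *Igf2* between -0.58 and 0.043. The number of genes called over the whole table, 1 (*Rn45s*), was 2 without the mean-variance trend, 2 without moderation, 3 without the 2 libraries high in heart muscle markers, and 1 to 3 with a library left out. The number of members with an unadjusted p under 0.05 went from 0 to 1 with the replicate block (*Mest*) and was 0 to 1 with a library left out (*Mest* without KO 0, *Plagl1* without KO 1). The number of members without overlap went from 0 to 1 with quantile normalization (*Peg3*, beside 15.4% of all genes) and to 1 without the 2 libraries high in heart muscle markers (*Cdkn1c*, beside 38.0% of all genes), and was 0 to 3 with a library left out (*H19*, *Peg3*, and *Mest* without KO 0), where 24.0% to 28.9% of all genes did not overlap. The correlation of *Dlk1* and *Meg3* fell to 0.61 without the 2 libraries farthest from the median, and that of *H19* and *Igf2* went to 0.97. Fits with libraries left out also had fewer libraries, and the causes of these changes were not tested. The replicate block pairs libraries by the numbers 0, 1, and 2, which no source describes as pairs. Deviations of same-numbered libraries correlated at 0.12, -0.08, and -0.009. By these deviations WT 0 matched KO 0 best, whereas WT 1 matched KO 2 best and WT 2 matched KO 1 best. The block left the number of genes called at 1.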

Other observations

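Of 32 imprinted genes of other clusters, 29 were tested, and 3 (10.3%) had an unadjusted p under 0.05 in limma, beside 8.28% of all genes tested. After adjustment 0 passed. *Commd1* was at 124, 89.5, and 73.6 FPKM in WT and 38.2, 41.1, and 66.1 FPKM in KO (log2 fold change -0.99, standard error 0.28, adjusted p = 0.502 from limma). *Nnat*, a small membrane proteolipid known from neurons, was at 12.3, 11.5, and 10.4 FPKM in WT and 18.1, 36.5, and 19.7 FPKM in KO (log2 fold change 1.04, standard error 0.31, adjusted p = 0.533 from limma). The summed level of 10 neuron markers, all 7 tested of which had a positive log2 fold change and none of which was listed at 0 throughout, was 16.5 to 24.9 FPKM in WT and 52.3 to 67.5 FPKM in KO, and its part in the *Nnat* values was not tested. *Ube3a*, a ubiquitin ligase imprinted in neurons, was at 27.9, 31.6, and 26.8 FPKM in WT and 40.8, 37.5, and 43.9 FPKM in KO (log2 fold change 0.50, standard error 0.17, adjusted p = 0.552 from limma). For all 3 genes the groups did not overlap. That held for 5 of the 29 (17.2%) and for 16.1% of all genes tested. Without overlap, the direction cannot turn when a library is left out.

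Of 24 genes that act on or with the members, 21 were tested and 0 had an unadjusted p under 0.05 in limma, beside 8.28% of all genes tested. The groups did not overlap for 2 (9.52%), *Dnmt1* and *Notch1*, beside 16.1% of all genes tested. *Notch1* was higher in KO, at 17.7, 14.2, and 21.2 FPKM in WT and 21.5, 28.0, and 23.5 FPKM in KO. The insulator protein gene *Ctcf* was at 17.2 to 30.2 FPKM in WT and 18.0 to 24.3 FPKM in KO, and *Trim28*, which helps keep imprints, at 51.0 to 57.1 FPKM and 32.0 to 54.2 FPKM. *Dnmt1*, the maintenance DNA methyltransferase, was at 39.9, 37.6, and 63.3 FPKM in WT and 34.5, 32.1, and 36.8 FPKM in KO, without overlap (log2 fold change -0.41, 95% interval -0.95 to 0.14, adjusted p = 0.657 from limma).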
